A study of Homo sapiens with 2 samples.

Results

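Most of the 37 genes described here encode the machinery that starts autophagosomes and attaches ubiquitin-like proteins to their membranes. The rest encode cargo receptors, the lysosomal DRAM proteins and the transcription factor TFEB. They were grouped by function, with earlier results of these arrays known, and each was found on the arrays through probe sets annotated to that gene alone. All 37 had at least 1 such probe set, 91 in total, among 19775 genes named in this way. DLD-1, a human colorectal carcinoma line, had been stably transfected with a tet-off system for wild-type p53, in which tetracycline keeps the transgene silent. The p53 on cells had been without tetracycline for 9 h, and the p53 off cells were cultured with it. Both carried the construct, and each condition was measured on 1 Affymetrix array from total RNA. The sources used here do not say whether the line is 1 clone. The level of p53 itself was not analysed here, so the 2 names stand for the conditions on the labels.

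In autophagy, a double membrane closes around cytoplasm and delivers it to the lysosome. The ULK1 kinase complex starts the process, a class III phosphatidylinositol 3-kinase marks the membrane, and 2 ubiquitin-like conjugation reactions attach proteins of the ATG8 family to it. Cargo receptors bind ATG8 proteins and what is to be degraded. Depending on the state of the cell, p53 is known to act on autophagy in both directions, and DRAM1, a lysosomal membrane protein, is among its known target genes.

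The deposited values are MAS5 signals, a linear brightness per probe set. Signals under a floor of 112.4, the median of all signals, were set to it, so a ratio with 1 signal under the floor is a bound. A gene with both signals under it had no ratio and counts as not measured. The probe set of highest mean signal stood for its gene, and the log2 ratio is that of p53 on over p53 off. With 1 array per condition there is no test, no error between cultures and no replicate check for any ratio. In RNA from a whole culture, a difference in all cells and a difference in some of them cannot be told apart.

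The arrays differed in more than these genes. The beta-actin control signal at the 3' end was 7.29 times that at the 5' end on the p53 on array and 1.37 times on the p53 off array. For GAPDH the ratio was 1.77 with p53 on and 0.974 with p53 off. Hybridization spike-ins read higher with p53 on, by a median factor of 1.89 over 18 probe sets. Scaling to them would put the median log2 ratio of measured genes at -0.80 in place of 0.0035, so higher and lower below are relative to the median gene. Of 12 markers of colon epithelium, 9 were at or above the floor on each array, while CDX1, GPA33 and KRT20 were under it on both. The summed signal of 5 leukocyte markers was 619 with p53 on and 207 with p53 off, that of 6 fibroblast markers 821 and 376, and that of 5 endothelial markers 618 and 389. At or above the floor were 2 leukocyte, 3 fibroblast and 3 endothelial markers with p53 on, and 0, 1 and 2 of them with p53 off. The highest of these signals was 231 with p53 on and 159 with p53 off. The part of RNA quality, scaling and dim signals in the ratios below was not tested.

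As a group the autophagy genes did not stand out from the rest of the array, but a few single members did. ULK2 was not measured on its brightest probe set, which left 36 of 37. Of these, 8 (22.2%) were at least 1.5-fold higher with p53 on, against 25.9% of 13915 measured genes. Another 8 (22.2%) were at least 1.5-fold lower, against 25.9%. At 2-fold, 7 were higher (19.4%, against 15.3%) and 4 lower (11.1%, against 13.5%). The members' median log2 ratio was -0.081, against 0.0035 over all measured genes. Of the 36, 13 lay above 0 and 23 below it. Over all measured genes the exact split was not counted, but a median of 0.0035 puts nearly as many above 0 as below it. The difference between these splits was not tested. With both signals at or above the floor, the median was -0.090 for 32 members and -0.097 for 10737 genes.

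For 4 of the 36 the dimmer signal was under the floor, ULK1 and TFEB with p53 off and ATG16L1 and VMP1 with p53 on. Both signals were at or above it in 32 members, and 5 of these were higher (15.6%) and 3 lower (9.38%) by 2-fold or more, against 14.7% and 15.6% of the 10737 genes with both signals there. The 7 members at least 2-fold higher were DRAM1, TFEB, ULK1, WIPI2, RB1CC1, ATG4B and ATG2B. The 4 at least 2-fold lower were ATG16L1, ATG4C, GABARAPL1 and PIK3R4.

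**Figure D1:**
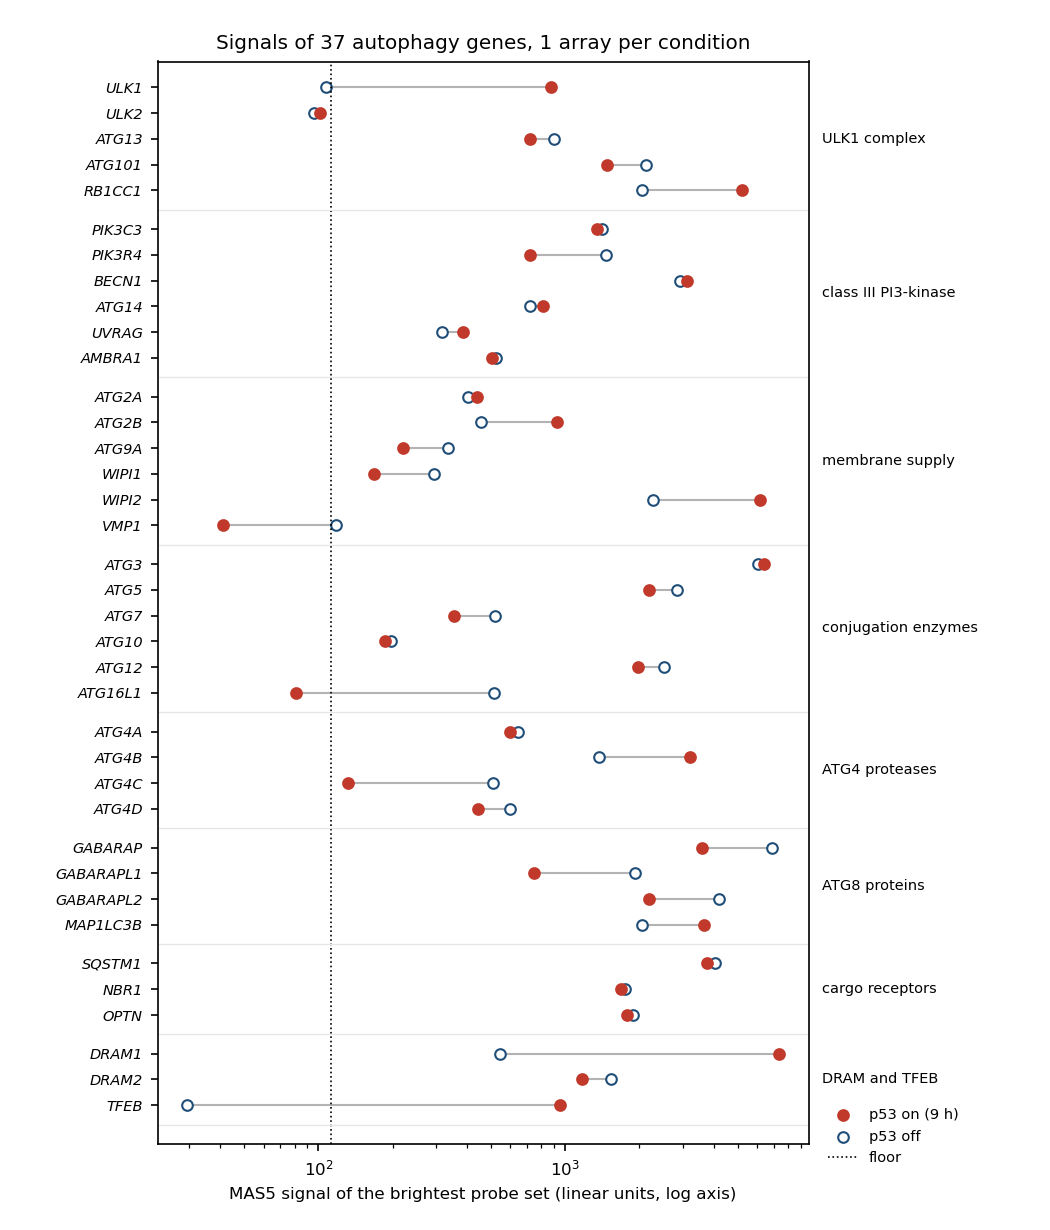
MAS5 signal of the brightest probe set (log axis) of each of the 37 genes on the p53 on array (filled) and the p53 off array (open), by role, with the floor of 112.4 as a dotted line. Each point is 1 array. DRAM1 has the widest gap among genes with both signals above the floor, at 7354 and 544, and the 3 cargo receptors have nearly equal signals.

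The ULK1 kinase complex receives signals from AMPK and mTORC1 and starts the autophagosome. ULK1, its catalytic kinase, had a signal of 875 with p53 on and 108 with p53 off, and was at least 7.78-fold higher. Its p53 off signal lay just under the floor, and ULK1 had a single probe set, so nothing on the array repeats this value.

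RB1CC1, the large scaffold subunit also known as FIP200, was higher on both of its probe sets. The brightest read 5230 with p53 on and 2052 with p53 off, a 2.55-fold difference. The other read 2324 with p53 on and 644 with p53 off, a 3.61-fold difference. These names carry marks of shared sequence, so the ratio was not available without such probe sets.

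Of the other subunits, ATG13 and ATG101 were lower by less than 1.5-fold on their brightest probe sets, and ULK2 gave little information. ATG13, the adaptor that binds ULK1, read 719 with p53 on and 902 with p53 off, with log2 ratios between -0.75 and -0.33 over its 3 probe sets. ATG101, the partner of ATG13, read 1482 with p53 on and 2127 with p53 off, a log2 ratio of -0.52. ULK2, the kinase closest to ULK1, read 102 with p53 on and 95.9 with p53 off on its brightest probe set, both under the floor. Its 1 measured probe set read 129 with p53 on and 8.33 with p53 off, at least 1.15-fold higher. The difference between ULK1 and ULK2 can therefore not be given as a ratio.

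The promoter windows of DRAM1 and ULK1, higher genes with large ratios and a single probe set each, are shown. Those of GABARAPL1, a lower gene, and ATG3, a level one on its brightest probe set, are added because they hold motif matches. Each runs from 250 bases before to 50 after the RefSeq start on GRCh38.p14, read 5' to 3' on the gene's strand. Capitals mark matches to the p53 half-site or to CACGTG, the core motif bound by TFEB, both searched on both strands. DRAM1 is at chr12:101877330-101877629 (plus strand), ULK1 at chr12:131894372-131894671 (plus), GABARAPL1 at chr12:10212627-10212926 (plus) and ATG3 at chr3:112561913-112562212 (minus).
DRAM1: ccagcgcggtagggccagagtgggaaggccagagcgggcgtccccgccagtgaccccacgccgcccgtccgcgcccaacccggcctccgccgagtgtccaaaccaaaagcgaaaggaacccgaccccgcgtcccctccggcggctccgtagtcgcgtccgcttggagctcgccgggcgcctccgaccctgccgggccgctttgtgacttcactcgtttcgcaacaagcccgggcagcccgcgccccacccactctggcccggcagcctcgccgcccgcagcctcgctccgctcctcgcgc
ULK1: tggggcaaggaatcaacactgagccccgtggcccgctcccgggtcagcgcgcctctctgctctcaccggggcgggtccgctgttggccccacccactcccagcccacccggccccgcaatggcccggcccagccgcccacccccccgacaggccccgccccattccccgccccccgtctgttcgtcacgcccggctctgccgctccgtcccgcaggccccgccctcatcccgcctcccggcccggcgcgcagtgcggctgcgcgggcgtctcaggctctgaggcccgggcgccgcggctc
GABARAPL1: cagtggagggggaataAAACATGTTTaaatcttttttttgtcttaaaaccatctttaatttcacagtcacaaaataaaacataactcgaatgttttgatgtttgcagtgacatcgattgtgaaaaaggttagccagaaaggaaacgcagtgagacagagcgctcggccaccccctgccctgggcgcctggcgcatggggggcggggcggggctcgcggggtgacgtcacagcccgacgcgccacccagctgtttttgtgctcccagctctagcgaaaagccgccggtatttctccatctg
ATG3: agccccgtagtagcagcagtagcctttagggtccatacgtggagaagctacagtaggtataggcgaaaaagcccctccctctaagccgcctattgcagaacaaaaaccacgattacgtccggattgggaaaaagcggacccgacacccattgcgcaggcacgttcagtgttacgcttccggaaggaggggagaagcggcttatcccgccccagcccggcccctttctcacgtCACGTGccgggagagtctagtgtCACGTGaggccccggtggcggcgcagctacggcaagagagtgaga

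RefSeq windows were matched by symbol for 34 of the 37 genes, 43 windows in all. A p53 half-site was present in 1 of the 43 (2.33%), that of GABARAPL1, where it begins 234 bases before the start, against 5.95% of the windows of measured genes and 6.63% of all 35116 windows. CACGTG was present in 2 of the 43 (4.65%), those of ATG3 and ATG14, against 9.1% of the windows of measured genes and 7.26% of all windows. In ATG3 it begins 18 bases before the start and again at base 6 after it, and in ATG14 21 bases before the start. No window of a member held both motifs, so no match is counted under both. The windows of DRAM1 and ULK1 and the 3 windows of TFEB held neither motif, which says only that these letters are not in those 300 bases.

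The class III phosphatidylinositol 3-kinase complex makes the phosphoinositide that marks the growing membrane. Its genes were nearly level except PIK3R4. PIK3C3, the catalytic subunit VPS34, read 1340 with p53 on and 1406 with p53 off, and BECN1, or Beclin 1, read 3126 with p53 on and 2930 with p53 off. ATG14 and UVRAG, which each define a form of the complex, had log2 ratios of 0.18 and 0.29. AMBRA1, a regulator that binds Beclin 1, read 505 with p53 on and 525 with p53 off.

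PIK3R4, the regulatory subunit VPS15, read 722 with p53 on and 1468 with p53 off and was 2.03-fold lower. Its other 2 probe sets were under the floor on both arrays. For BECN1 a second measured probe set had a log2 ratio of -0.25, and for AMBRA1 of -0.52. Those of PIK3C3 ran from -0.62 to 0.0037, each with 1 signal under the floor.

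Membrane supply and its phosphoinositide readers held both higher and lower members. WIPI2, which recruits ATG16L1 to the marked membrane, read 6168 with p53 on and 2276 with p53 off and was 2.71-fold higher. Of its other 4 probe sets, 3 were also higher, with log2 ratios of 0.76, 1.42 and 2.21. The dimmest read 82.6 with p53 on and 172 with p53 off and was at least 1.53-fold lower. WIPI2 was the only 1 of 21 members with at least 2 measured probe sets that had them past 1.5-fold in both directions, against 6.6% of 6680 such genes.

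WIPI1, its paralogue, read 168 with p53 on and 295 with p53 off on the brightest probe set, 1.75-fold lower. The second, almost as bright, read 261 with p53 on and 198 with p53 off, a log2 ratio of 0.40. The direction of WIPI1 therefore depended on the probe set.

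ATG2B, a lipid transfer protein, read 931 with p53 on and 456 with p53 off and was 2.04-fold higher. A second probe set read 646 with p53 on and 181 with p53 off, 3.56-fold higher, and the 2 dim ones were higher by at least 1.45-fold each. ATG2A, its paralogue, read 440 with p53 on and 405 with p53 off on a single probe set. Every measured ratio of ATG2B was above that of ATG2A.

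ATG9A, a scramblase carried by vesicles, read 221 with p53 on and 336 with p53 off and was 1.52-fold lower, at the edge of the 1.5-fold threshold. VMP1, an endoplasmic reticulum protein of the same step, read 41.0 with p53 on and 118 with p53 off. This is at least 1.05-fold lower, a bound that carries almost no information. A further 3 probe sets are annotated to VMP1 together with a microRNA gene and were not used.

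In the conjugation enzymes, which join ATG12 to ATG5 and ATG8 proteins to lipid, 1 of 6 genes was past 1.5-fold. Over all measured genes, 25.9% were higher and 25.9% lower by that much. ATG16L1, which places the ATG12 and ATG5 conjugate at the membrane, read 80.7 with p53 on and 517 with p53 off and was at least 4.60-fold lower. Its probe sets are all marked for shared sequence, so it had no ratio when such probe sets were left out. With the remaining settings its log2 ratio ran from -2.68 to -1.61. Its second probe set read 37.9 with p53 on and 100.1 with p53 off, both under the floor, so it gave no ratio.

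The other enzymes were within 1.5-fold on their brightest probe sets, with ATG7 near that threshold. ATG3, the E2-like enzyme for ATG8 proteins, read 6394 with p53 on and 6076 with p53 off, but its dim second probe set read 435 with p53 on and 116 with p53 off, 3.76-fold higher. ATG7, the E1-like enzyme, had log2 ratios of -0.55 and -0.49 on its brighter probe sets and 0.69 on the next. ATG5 read 2187 with p53 on and 2850 with p53 off, with other ratios of -0.90 and 0.21.

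ATG12, the ubiquitin-like partner of ATG5, read 1967 with p53 on and 2510 with p53 off. Its other probe sets had log2 ratios of -1.23 and -0.055, so all 3 lay below 0. ATG10, the E2-like enzyme for ATG12, was dim at 186 with p53 on and 197 with p53 off. Its other measured probe sets had log2 ratios from -0.65 to 0.13, the lowest of them a bound. Across this step only ATG16L1 was past 1.5-fold on the brightest probe set.

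The ATG4 proteases, which trim ATG8 proteins before conjugation and release them afterwards, diverged. ATG4B, generally the most active of them, read 3214 with p53 on and 1368 with p53 off and was 2.35-fold higher. Its other probe sets were 2.66-fold and at least 3.85-fold higher. All 3 of its probe sets are marked for shared sequence. ATG4C, on 1 probe set, read 131 with p53 on and 508 with p53 off and was 3.86-fold lower, a smaller ratio than that of all but 1.94% of measured genes. Its p53 on signal was close to the floor.

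ATG4A read 598 with p53 on and 647 with p53 off, and ATG4D 444 with p53 on and 599 with p53 off, log2 ratios of -0.11 and -0.43. The lowest log2 ratio of ATG4B, 1.23, was 1.35 above that of ATG4A, 3.18 above that of ATG4C and 1.66 above that of ATG4D. For comparison, the log2 ratios of a gene's further probe sets lay a median of 0.56 away from its brightest over all measured genes, and 0.51 away over 38 probe sets of these members.

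Of the 4 ATG8 genes among the members, 3 were lower and MAP1LC3B was higher on its brightest probe set. All 3 genes of the GABARAP branch, whose proteins act in late steps of autophagosome maturation, were lower. GABARAPL1 read 749 with p53 on and 1914 with p53 off, 2.55-fold lower, and its second probe set read 428 with p53 on and 1556 with p53 off, 3.64-fold lower. GABARAP read 3583 with p53 on and 6911 with p53 off, 1.93-fold lower. GABARAPL2 read 2195 with p53 on and 4192 with p53 off, 1.91-fold lower.

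GABARAP and GABARAPL2 had 1 probe set each. A further probe set is annotated to GABARAPL1 together with GABARAPL3, a near-identical copy, and was not used. Cross-hybridization between these copies in the probe sets that were used was not tested.

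MAP1LC3B, the LC3 gene whose protein is the usual marker of autophagosomes, read 3645 with p53 on and 2040 with p53 off and was 1.79-fold higher. Its second probe set read 1313 with p53 on and 1515 with p53 off, a log2 ratio of -0.21. Even that ratio was above those of all 3 GABARAP genes, which ran from -1.86 to -0.93. MAP1LC3A, another LC3 gene but not one of the 37, was lower like the GABARAP genes, with log2 ratios of -1.18 on its brightest probe set and from -2.03 to -0.78 on the other 2. After scaling to the spike-ins, MAP1LC3B had a log2 ratio of -0.082 and GABARAP one of -1.87.

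**Figure D2:**
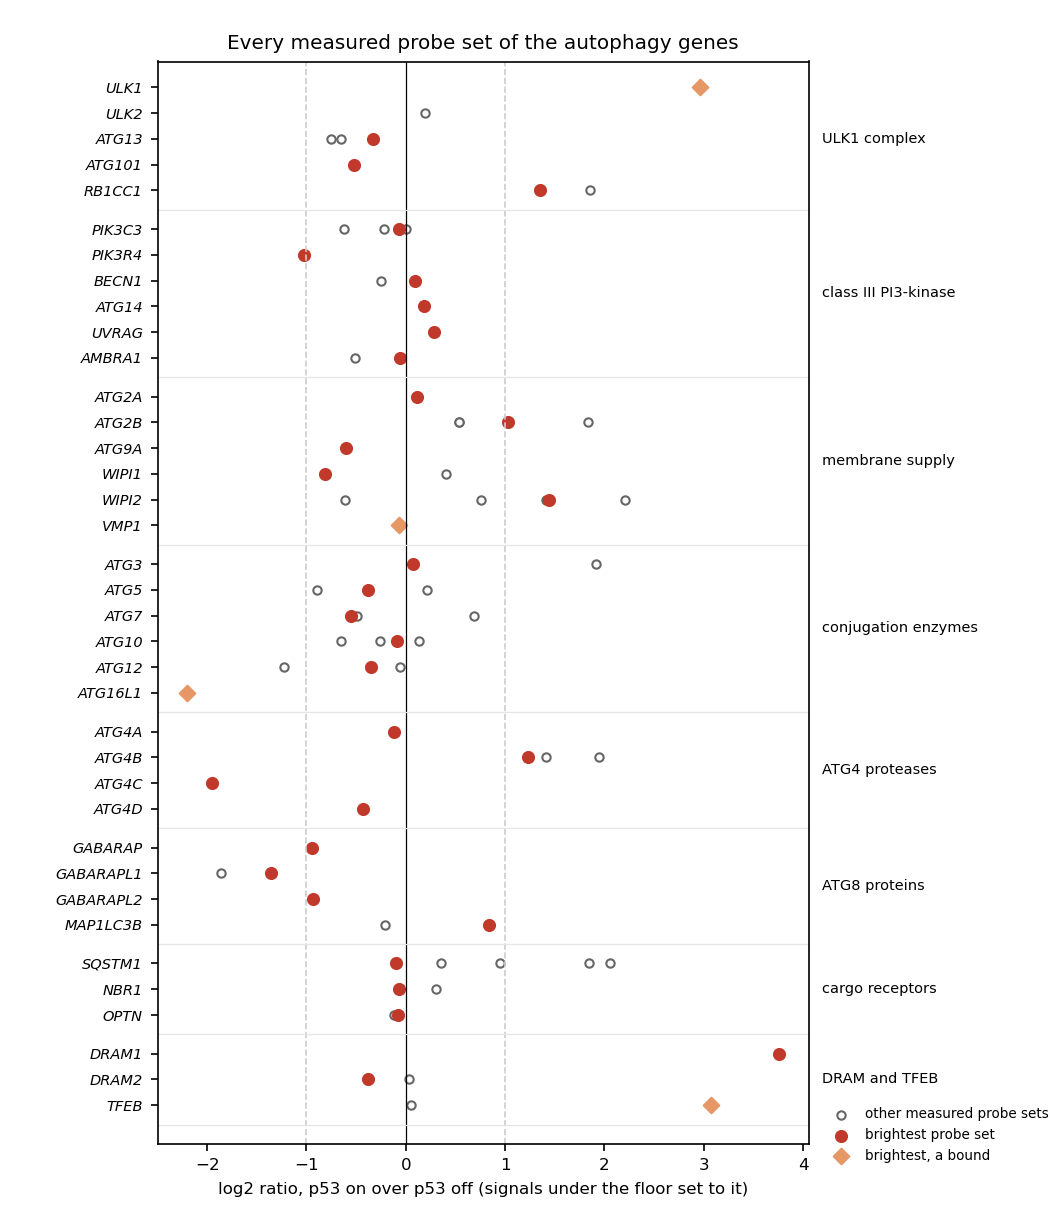
Log2 ratio (p53 on over p53 off) of every measured probe set of the members, by role. Filled circles are the brightest probe set of a gene, diamonds a brightest probe set with 1 signal under the floor, and open circles the others, with dashed lines at 2-fold. RB1CC1 and ATG4B lie to the right on all their probe sets and GABARAPL1 to the left, while TFEB, SQSTM1, ATG3 and WIPI2 are spread.

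The cargo receptors were level on their brightest probe sets. SQSTM1, or p62, which links ubiquitinated cargo to ATG8 proteins, read 3775 with p53 on and 4039 with p53 off. NBR1, a related receptor, read 1676 with p53 on and 1754 with p53 off. OPTN, or optineurin, read 1779 with p53 on and 1881 with p53 off. The 3 log2 ratios lay between -0.097 and -0.065.

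SQSTM1 had 4 dimmer probe sets, all of which were higher with p53 on. Their log2 ratios were 0.36, 0.95, 1.84 and 2.05, and the last of these read 1003 with p53 on and 241 with p53 off. For NBR1 and OPTN the second measured probe set had log2 ratios of 0.30 and -0.12.

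DRAM1 had the largest ratio among members with both signals above the floor. It read 7354 with p53 on and 544 with p53 off, 13.5-fold higher, and 99.4% of measured genes had a smaller ratio. Its log2 ratio ran from 2.84 to 3.99 over the 11 other settings. DRAM1 had 1 probe set. DRAM2, its paralogue, read 1176 with p53 on and 1528 with p53 off, and its other probe set 410.0 with p53 on and 401 with p53 off. The log2 ratio of DRAM1 was 4.14 above that of DRAM2.

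TFEB, a transcription factor of lysosome and autophagy genes, gave 2 different readings. The brighter probe set read 949 with p53 on and 29.3 with p53 off, at least 8.45-fold higher. The other read 140 with p53 on and 135 with p53 off, a log2 ratio of 0.054. Both signals of the second were near the floor. With the mean of the 2 probe sets in place of the brightest, the log2 ratio of TFEB was 1.57.

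Some paralogues were set side by side after their values were seen, as a description of these pairs alone. DRAM1 was above DRAM2, ATG2B above ATG2A, ATG4B above the other ATG4 genes and MAP1LC3B above the GABARAP genes on every measured probe set. For WIPI2 and WIPI1 the ranges overlapped, from -0.61 to 2.21 and from -0.81 to 0.40.

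Probe sets of 1 gene often differed in direction, in these genes as elsewhere. Of 21 members with at least 2 measured probe sets, 10 (47.6%) had all of them on 1 side of 0, against 58.6% of 6680 genes. RB1CC1 and ATG4B (2 of 21, 9.52%) were at least 1.5-fold higher on every measured probe set, against 11.3%. GABARAPL1 (1 of 21, 4.76%) was at least 1.5-fold lower on every one, against 10.4%. Of the 75 measured probe sets of members, 36 were higher and 39 lower. Of the 37 members, 16 had only 1 measured probe set, among them DRAM1, ULK1, ATG16L1, ATG4C and PIK3R4.

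The other genes of the pathway, in 7 lists chosen by function with earlier results of these arrays known, were more often lower than higher. Of the 81 measured, 18 (22.2%) were higher by 1.5-fold or more and 29 (35.8%) lower, against 25.9% in each direction over all measured genes, with a median log2 ratio of -0.21. Only 1 of the 81 had a signal under the floor. Genes with both signals at or above it also leaned lower, with 24.2% higher, 29.6% lower and a median of -0.097. Part of the lean of these lists was therefore shared with such genes across the array. In the vacuolar proton pump, which acidifies the lysosome, 1 of 14 was higher and 6 were lower, with a median of -0.48. The largest differences there were those of ATP6V1B2, ATP6V1C1 and ATP6AP1, at 2.93-fold, 2.56-fold and 2.23-fold lower. Further probe sets of ATP6V1C1 had log2 ratios from -0.52 to 0.14.

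Of 13 genes for fusion of the autophagosome with the lysosome, 2 were higher and 5 lower, with a median of -0.32. VAMP8, a SNARE protein of this fusion, read 10663 with p53 on and 3582 with p53 off, 2.98-fold higher. STX17 and YKT6, SNARE proteins on the autophagosome, were 2.58-fold and 2.43-fold lower, and all 5 measured probe sets of STX17 were lower. SNAP29, a further SNARE gene of this list, was 2.08-fold lower, with all 3 of its measured probe sets lower. VAMP8 thus differed in direction from the other SNARE genes named here.

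Lysosomal enzymes and membrane proteins had a median of 0.14, with 4 of 19 higher and 3 lower. SCARB2, a lysosomal membrane receptor, read 18057 with p53 on and 5411 with p53 off, 3.34-fold higher, with all 4 of its probe sets higher. MANBA and GUSB, lysosomal hydrolases, were 1.97-fold and 1.65-fold higher, although a second GUSB probe set had a log2 ratio of -0.25.

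Among other cargo and mitophagy receptors, 3 of 12 were higher and 5 lower, with a median of -0.21. RETREG1, a receptor for the endoplasmic reticulum also known as FAM134B, read 7098 with p53 on and 1453 with p53 off, 4.88-fold higher. Its second probe set had nearly the same log2 ratio, 2.27 beside 2.29. NCOA4, the ferritin receptor, was 2.38-fold higher, and FKBP8, a mitochondrial receptor, 3.32-fold lower.

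In the list of other core genes, 1 of 8 was higher and 4 were lower, with a median of -0.48. RUBCN, or Rubicon, an inhibitor of autophagosome maturation, was 2.27-fold higher, with all 3 of its probe sets higher. MAP1LC3A, given above, and TMEM41B, a scramblase that works with VMP1, were 2.26-fold and 2.11-fold lower, and every measured probe set of both was lower.

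Of 5 further transcription factors, 3 were higher and 1 was lower, with a median of 1.03. FOXO1, which activates autophagy genes, read 1829 with p53 on and 474 with p53 off, 3.86-fold higher, and its second probe set had a log2 ratio of 2.26. TFE3, a relative of TFEB, was 2.15-fold higher, but another probe set had a log2 ratio of -0.19. ZKSCAN3, a repressor of autophagy genes, was 2.18-fold lower.

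Of 10 AMPK and mTORC1 genes upstream of ULK1, 4 were higher and 5 lower, with a median of -0.091. The mTORC1 genes MLST8 and AKT1S1 were 2.48-fold and 2.23-fold lower. DEPTOR, of the same list, read 531 with p53 on and 241 with p53 off, 2.20-fold higher. A list of 5 to 19 genes gives a coarse share, and none of these shares was tested.

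**Figure D3:**
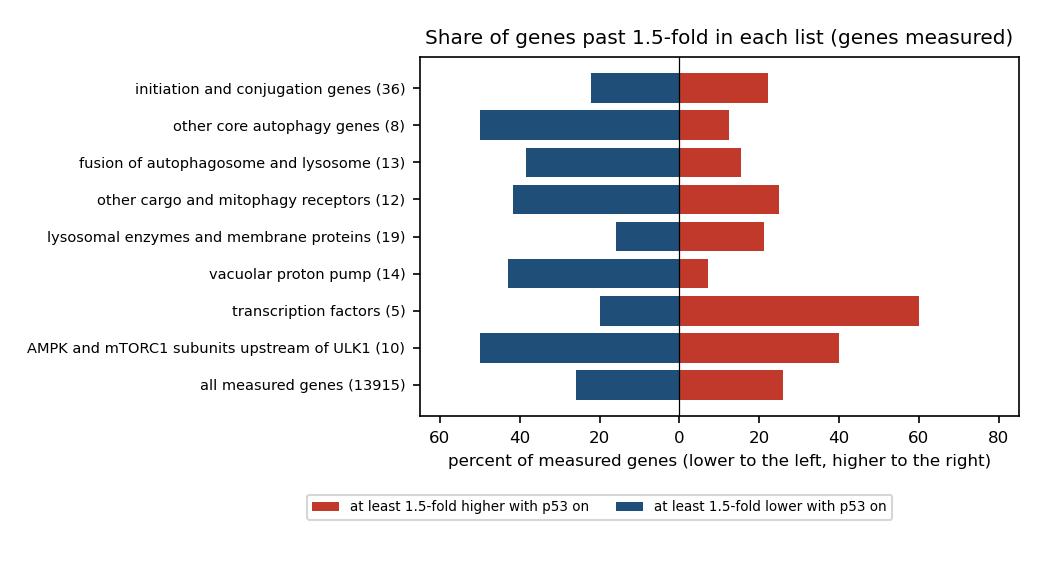
Percent of measured genes at least 1.5-fold higher (right) and at least 1.5-fold lower (left) with p53 on, for the initiation and conjugation genes, 7 other autophagy and lysosome lists, and all measured genes, with the number measured in brackets. The initiation and conjugation genes have 22.2% on each side, beside 25.9% on each side for all measured genes, and the proton pump list has 7.14% higher and 42.9% lower.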

How the data were processed

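Gene expression was measured on 1 array per condition. The authors deposited linear intensities for each probe set. Per the submitters' processing notes, MAS5 was used. The sources used here give neither its version nor its settings. A mean over 54675 probe sets, trimmed by 2% at each end, came to 500.1 on each array, so no scaling was added.

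Without controls there were 54613 probe sets. GEO's platform annotation gives 1 symbol for 41091, which were used, several for 1801 and none for 11721, unnamed here. RefSeq supplied current symbols by Entrez identifier. Promoter windows are those of RefSeq on GRCh38.p14. The floor was the 50th percentile of signals over both arrays. Genes were counted at 1.5-fold and 2-fold by size alone. Every member is named, and in each other list the 3 genes with the largest absolute log2 ratio, with SNAP29 added after its value was seen. Members, lists and settings were chosen with earlier results of these data known. The gene table was tested on simulated data in which only genes well above the floor were changed. Only raised genes had to be recovered for the test to pass, so dim genes, lower genes and bounds were not checked. The 11 other settings were the floor percentile (40 or 60), a pseudocount (1 or the floor), centring, quantile, loess (span 0.3) or spike-in scaling, the mean or median of measured probe sets, and leaving out probe sets marked _s_at or _x_at. A planned comparison of ATG8 protein sequences was not made. Python 3.11.15, numpy 2.4.6, pandas 2.3.3, statsmodels 0.14.6 and matplotlib 3.10.9 were used.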

Additional observations from a re-analysis of the deposited data

Results flagged for a closer look

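Control signals that enter no gene comparison stood above their level on the p53 off array. For beta-actin, the 3' to 5' signal ratio was 7.29 with p53 on and 1.37 with p53 off. For GAPDH it was 1.77 with p53 on and 0.974 with p53 off. Samples were not set against others of their group, since each condition has 1 array.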

How the results depend on the processing

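Of the 16 members past 1.5-fold, 13 stayed past it on the same side in every setting run other than spike-in scaling, and the exceptions were ATG9A, WIPI1 and MAP1LC3B. Among the 13, ATG4B, ATG16L1, RB1CC1, GABARAPL1 and GABARAPL2 had no ratio without probe sets marked for shared sequence, so that setting did not check them. ULK1, DRAM1, ATG4C, GABARAP and PIK3R4 had a single measured probe set without such a mark. The settings on the choice of probe sets therefore could not change their ratios. The same count over all measured genes was not made. The members' median was 0.071 after loess. Scaling to the spike-ins moved the median of all measured genes to -0.80 and that of the members to -0.999, with 3 members higher and 27 lower at 1.5-fold and 3 higher and 18 lower at 2-fold. MAP1LC3B reversed there, to -0.082. At 1.5-fold, that scaling left 1 higher and 2 lower in the ULK1 complex, 0 higher and 3 lower ATG4 genes, 0 higher ATG8 and membrane supply genes, and 3 lower cargo receptors, 6 lower kinase complex genes, 6 lower conjugation enzymes and 1 lower gene of the DRAM and TFEB group. The medians of the other lists were then -0.89 (AMPK and mTORC1), -1.24 (fusion), -0.78 (lysosome), -1.12 (other receptors), -1.40 (other core genes), 0.11 (transcription factors) and -1.44 (proton pump).

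The mean and the median of all measured probe sets each left 0 higher ATG8 genes, 1 higher cargo receptor, 1 higher conjugation enzyme and 1 lower membrane supply gene, and the median also 1 lower gene of the ULK1 complex. Lysosome genes then had medians of -0.12 and -0.090, and transcription factors 0.46 in both. A pseudocount equal to the floor left 0 lower membrane supply genes. Without probe sets marked for shared sequence, fewer genes had a value. There were 5 members lower at 1.5-fold and 2 at 2-fold, with 0 higher ATG4 genes, 0 higher and 1 lower ATG8 genes, 1 higher gene of the ULK1 complex, 1 higher cargo receptor, and 2 higher and 0 lower conjugation enzymes. The medians were -0.15 for lysosome genes, -0.029 for other core genes and 0.38 for transcription factors. Apart from these, counts stayed within 1.5 times. Medians moved by less than the spread between probe sets divided by the square root of the number of genes. The cause of these changes was not tested beyond the smaller number of genes. No paired analysis was possible because each condition has 1 array. Genes read here on dim probe sets, such as VMP1 and ULK2, are limited by the floor.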
